A study of Mus musculus with 24 samples.

Results

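The 10 lipid-associated macrophage genes Trem2, Tyrobp, Apoe, Lpl, Gpnmb, Spp1, Cd9, Itgax, Clec7a and Cst7 were followed in the mouse choroid, with and without laser treatment and with and without the adhesion receptor CEACAM1. They were taken by symbol from the 56065 genes of the deposited table, and all 10 were found and passed the filter on low values. Choroidal RNA was sequenced in 24 libraries by SMART-Seq, a method for full-length transcripts at low input. Without laser, 4 libraries were of wild type and 4 of Ceacam1-/- mice, and with laser 9 and 7. Ceacam1-/- mice carried a homozygous deletion of exons 1 and 2 of Ceacam1, and the controls were wild type littermates, all on a C57BL/6J background. Laser mice received 6 spots per eye (150 mW, 200 µm, 100 ms), a treatment that breaks Bruch's membrane and is used to induce choroidal neovascularization. The time from laser to tissue collection and the sex of each mouse are not given in the sources used here, and mice were 6 to 8 weeks old unless stated otherwise. The labels do not say how mice or eyes relate to libraries. The paper counts its choroid samples as mice, 4 wild type and 4 Ceacam1-/-, the sizes of the groups without laser. P-values measure only the spread between these libraries, which may be technical in the laser groups.

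Values are normalized counts, that is, read estimates per gene corrected for library size and for differences between libraries in the gene's mean transcript length. They summed to between 23704346 and 35094410 per library, and the 4 groups overlapped in this total. Ceacam1 itself was measured at 958, 5027, 1242 and 4596 normalized counts in wild type libraries 21, 22, 26 and 27 without laser, and at 405, 505, 508 and 1171 in Ceacam1-/- libraries 23, 24, 25 and 28. With laser it lay between 774 and 8367 in wild type libraries (median 996) and between 67.8 and 905 in Ceacam1-/- libraries (median 335). Ceacam1-/- libraries 28 (no laser) and 15 (laser) reached into the wild type range. Reads from exons outside the deletion can still be counted, so this level does not check the label of a single library.

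The labelled tissue was checked against defining markers. Markers of retinal pigment epithelium, melanocytes, endothelium and fibroblasts were present in every library, and rod photoreceptor and skeletal muscle markers were abundant as well. The summed normalized counts of 6 rod markers reached 470670 in wild type library 21 and 514019 in Ceacam1-/- library 23 without laser, and 814376, 464126 and 872461 in Ceacam1-/- laser libraries 14, 15 and 18. In the other 19 libraries the sum lay between 2693 and 227720. These 5 libraries rich in rod RNA stand apart, and most laser effects in Ceacam1-/- mice are also given without them.

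Lipid-associated macrophages are macrophages that take up and break down lipid, known from fat tissue, atherosclerotic plaques and, as disease-associated microglia, from brain and retina. TREM2 is a surface receptor for lipids and lipoproteins that signals through the adaptor TYROBP, and in brain its loss blocks much of this program. APOE and LPL carry and hydrolyse lipid, GPNMB and SPP1 (osteopontin) are glycoproteins made in large amounts by such cells, CD9 is a tetraspanin of the cell surface, ITGAX (CD11c) and CLEC7A (dectin-1) are surface receptors, and CST7 (cystatin F) inhibits lysosomal cathepsins. Several of these genes are also active outside macrophages, among them Apoe in pigment epithelium and glia, Lpl in fat and muscle, Gpnmb in pigment cells, and Cd9 in many cell types.

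In GRCm39, Trem2 lies at chr17:48653429-48661175 (plus strand, 5 exons in its canonical transcript) and Spp1 at chr5:104582165-104589235 (plus strand, 7 exons). Chromosome 6 holds Gpnmb (49013426-49047863, plus), Cd9 (125437210-125471778, minus) and Clec7a (129438554-129449742, minus), the others being Lpl at chr8:69284603-69360100 (plus) and Cst7 at chr2:150412284-150420864 (plus). Tyrobp (chr7:30113170-30117010, plus), Apoe (chr7:19430034-19434947, minus) and Itgax (chr7:127728668-127749829, plus) share chromosome 7 with Ceacam1 (chr7:25161128-25177257, minus). The distance to Ceacam1 is 4.94 Mb for Tyrobp, 5.73 Mb for Apoe and 102.55 Mb for Itgax, and Tyrobp and Apoe lie on either side of the deleted gene.

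The 250 bases before the start of the canonical transcript are shown for the receptors Trem2 and Clec7a, which were both higher after laser in wild type mice, and for Spp1, the member with the largest change. The sequences were read from the GRCm39 genome at the starts of GENCODE M39 and run 5′ to 3′ on the strand of the gene, at chr17:48653179-48653428 (Trem2, plus), chr6:129449741-129449990 (Clec7a, minus) and chr5:104581915-104582164 (Spp1, plus). Capitals mark the core letters GAGGAA of the site of PU.1, the leading transcription factor of macrophages, or their reverse complement TTCCTC.
Trem2: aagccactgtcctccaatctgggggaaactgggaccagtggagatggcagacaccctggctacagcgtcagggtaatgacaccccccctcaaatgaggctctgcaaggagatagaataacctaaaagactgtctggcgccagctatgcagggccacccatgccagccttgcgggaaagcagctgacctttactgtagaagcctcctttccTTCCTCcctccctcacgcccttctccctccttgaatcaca
Clec7a: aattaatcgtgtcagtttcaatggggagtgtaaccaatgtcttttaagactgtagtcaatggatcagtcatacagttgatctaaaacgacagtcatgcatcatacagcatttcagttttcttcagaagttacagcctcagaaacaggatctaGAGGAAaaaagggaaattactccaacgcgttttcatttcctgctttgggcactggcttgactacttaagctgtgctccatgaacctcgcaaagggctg
Spp1: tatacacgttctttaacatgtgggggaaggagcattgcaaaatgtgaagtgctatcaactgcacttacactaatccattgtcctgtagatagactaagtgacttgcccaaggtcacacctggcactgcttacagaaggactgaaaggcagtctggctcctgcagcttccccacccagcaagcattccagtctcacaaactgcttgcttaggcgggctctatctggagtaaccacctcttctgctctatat
Both strands were searched for GAGGAA, the E-box CACGTG, the AP-1 site TGACTCA and the LXR DR4 repeat of the liver X receptors, which do not overlap in these windows. Of the 3 sequences shown, those of Trem2 and Clec7a held GAGGAA and that of Spp1 did not. The letters stood in 23% of the promoters of 21586 protein-coding genes. They lay on the reverse strand 40 to 35 bases before the start in Trem2 and on the forward strand 98 to 93 bases before it in Clec7a. None of the 3 sequences held the AP-1, E-box or LXR letters, which were found before 4.01%, 6.3% and 0% of all genes. A match is a description of letters and not a binding site.

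The first question is how the 10 genes stood in the choroid of wild type mice after laser. Of the 10, 7 were higher (Trem2, Tyrobp, Gpnmb, Spp1, Cd9, Itgax and Clec7a) and 0 lower in the limma test across all 19950 genes with a mean of at least 10, at an adjusted p under 0.05 (Benjamini-Hochberg). Among all genes tested, 4.23% were called higher and 1.05% lower. Fold changes ran from 1.99-fold (Cd9) to 30.2-fold (Spp1), and the median log2 fold change of the 10 genes was 2.18, against -0.10 for all genes. For 5 members (Trem2, Tyrobp, Spp1, Itgax and Clec7a) every laser library lay above every library without laser, which held for 4.5% of all genes in this direction. The 4 Y-linked genes had a median log2 fold change of 3.28 in the same comparison, with 0 called. With the log2 of their summed counts as a covariate the same 7 members were called, beside 3.35% of all genes higher. In bulk tissue, more cells of a type and more RNA per cell cannot be told apart.

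**Figure D1:**
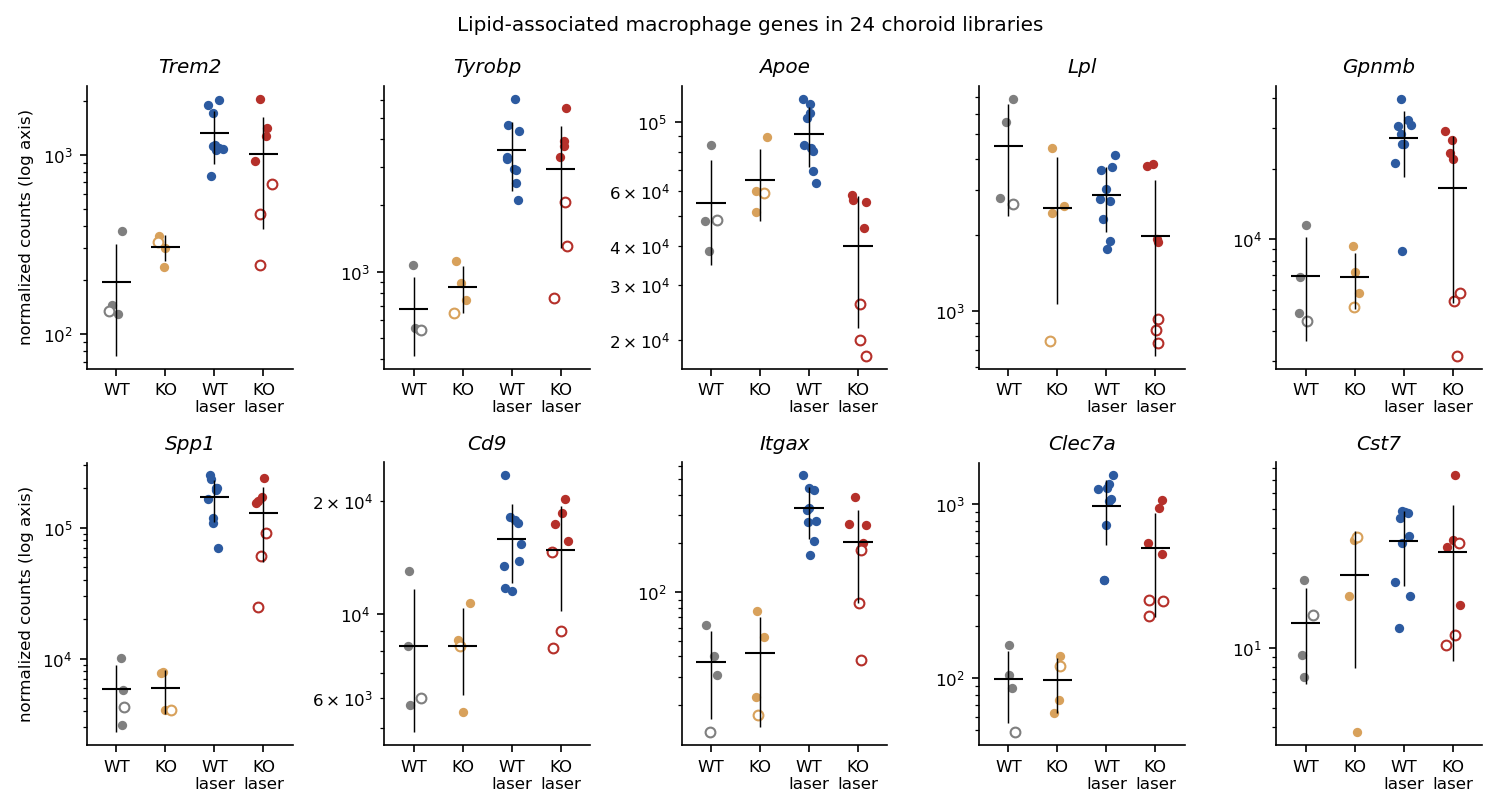
Normalized counts (log axis) of the 10 genes in each of the 24 libraries, in wild type (WT) and Ceacam1-/- (KO) mice without and with laser, with the group mean as a horizontal and the SD as a vertical bar. Open circles are the 5 libraries rich in rod RNA, 3 of which hold the lowest Trem2, Tyrobp, Apoe and Gpnmb values of the Ceacam1-/- laser group.

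Spp1, which encodes a secreted matrix protein that binds integrins and CD44, had the largest fold change of the 10 genes after laser in both genotypes. Without laser it stood at 4259, 5760, 10163 and 3125 normalized counts in wild type libraries 21, 22, 26 and 27 and at 4078, 7729, 4049 and 7921 in Ceacam1-/- libraries 23, 24, 25 and 28. With laser the 9 wild type libraries ranged from 69316 to 250533 (median 192190) and the 7 Ceacam1-/- libraries from 24734 to 239455 (median 154923). The laser libraries of both genotypes thus all lay above all libraries without laser. The log2 fold change was 4.92 (SE 0.47, limma adjusted p = 9e-07) in wild type and 4.22 (SE 0.49, adjusted p = 3.49e-05) in Ceacam1-/- mice. Without the 5 rod-rich libraries these values were 4.81 (SE 0.38) and 4.83 (SE 0.44). Ranked among all genes of its library, Spp1 was between place 264 and 1447 without laser, between place 2 and 17 in wild type laser libraries, and between place 2 and 69 in Ceacam1-/- laser libraries.

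Trem2, the lipid receptor, was measured without laser at 135, 144, 376 and 129 normalized counts in wild type libraries 21, 22, 26 and 27, and at 325, 237, 303 and 354 in Ceacam1-/- libraries 23, 24, 25 and 28. With laser it ranged from 762 to 2015 in wild type (median 1121) and from 242 to 2047 in Ceacam1-/- libraries (median 918). In wild type mice the groups did not overlap, and the log2 fold change was 2.84 (SE 0.41, limma adjusted p = 0.000118). In Ceacam1-/- mice 6 of 7 laser libraries lay above all libraries without laser, the exception being the rod-rich library 18 at 242. There the log2 fold change was 1.45 (SE 0.42) and did not pass the threshold (limma adjusted p = 0.0549). Without the 5 rod-rich libraries it was 2.20 (SE 0.37, limma adjusted p = 0.00053).

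Tyrobp, the signalling adaptor of TREM2 and of several other receptors, stood at 541, 557, 1073 and 543 normalized counts in wild type and 652, 747, 890 and 1122 in Ceacam1-/- libraries without laser, in the same library order. With laser it rose to between 2105 and 6088 in wild type (median 3234) and was between 760 and 5512 in Ceacam1-/- libraries (median 3300). Again only library 18, at 760, fell inside the range without laser. Laser changed it by 2.39 on the log2 scale in wild type (SE 0.38, limma adjusted p = 0.000379) and 1.56 in Ceacam1-/- mice (SE 0.40, adjusted p = 0.0305). With the rod-rich libraries left out, the latter was 2.15 (SE 0.31, limma adjusted p = 0.000161). The call of Tyrobp in Ceacam1-/- mice was lost without library 5, 6, 7, 24 or 25. It was also lost without a filter on low values and when only the Ceacam1-/- libraries were fitted.

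Receptor and adaptor were also compared with each other. Per kilobase of canonical transcript, the level of Trem2 was 0.153 ± 0.029 (SD, n = 4) of that of Tyrobp in wild type and 0.205 ± 0.049 (n = 4) in Ceacam1-/- libraries without laser, and 0.208 ± 0.0222 (n = 9) and 0.188 ± 0.0177 (n = 7) with laser. The 4 ranges overlapped, over all groups from 0.132 to 0.278. Across the 24 libraries, after each gene was centred on its own mean, the gene nearest to Trem2 among all protein-coding genes was Tyrobp, with a root mean square difference of 0.24 on the log2 scale, followed by Ly86 at 0.30. Nearest to Tyrobp were Fcer1g, the other common adaptor chain of myeloid receptors, at 0.20 and Bcl2a1b at 0.22, where Bcl2a1b has near-identical copies between which reads may have been split. Trem2 itself varied by 1.26 and Tyrobp by 1.14 on this scale (root mean square about the mean).

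Clec7a, the receptor for fungal beta-glucan, stood at 48.8, 87.4, 155 and 105 normalized counts in wild type libraries 21, 22, 26 and 27 and at 117, 62.7, 134 and 74.6 in Ceacam1-/- libraries 23, 24, 25 and 28 without laser. With laser it ranged from 365 to 1460 in wild type (median 1066) and from 227 to 1048 in Ceacam1-/- libraries (median 515). Neither genotype had an overlap between laser and no laser, so that Clec7a and Spp1 were the 2 members of which this held in Ceacam1-/- mice, where it held for 1.17% of all genes. On the log2 scale the laser effect was 3.26 in wild type (SE 0.44, limma adjusted p = 5.6e-05) and 2.34 in Ceacam1-/- mice (SE 0.45, adjusted p = 0.00589). It was 3.10 (SE 0.46, limma adjusted p = 0.00019) in Ceacam1-/- mice once the rod-rich libraries were left out.

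Itgax, an integrin alpha chain of dendritic cells and activated macrophages, was the lowest member per kilobase without laser. It was measured at 13.6, 30.7, 62.6 and 40.4 normalized counts in wild type and 17.5, 22.4, 52.5 and 76.4 in Ceacam1-/- libraries without laser, in library order. With laser it ranged from 170 to 528 in wild type (median 324) and from 37.8 to 388 in Ceacam1-/- libraries (median 203). Library 18 was the 1 laser library within the range without laser. The laser effect on the log2 scale was 3.24 in wild type (SE 0.50, limma adjusted p = 0.0003) and 2.18 in Ceacam1-/- mice (SE 0.53, adjusted p = 0.0227). Leaving out the rod-rich libraries gave 2.57 (SE 0.41, limma adjusted p = 0.000388) in Ceacam1-/- mice. The call of Itgax in Ceacam1-/- mice was lost without library 24 or 25 (no laser), and when only the Ceacam1-/- libraries were fitted.

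Gpnmb, a transmembrane glycoprotein of phagocytes and pigment cells, was lower in the rod-rich Ceacam1-/- laser libraries than in the others of that group. Without laser it stood at 4443, 6852, 11500 and 4793 normalized counts in wild type and at 5087, 7170, 5848 and 9280 in Ceacam1-/- libraries. With laser, Ceacam1-/- libraries 4, 5, 6 and 7 held 23410, 26618, 29013 and 22065, whereas the rod-rich libraries 14, 15 and 18 held 5869, 5409 and 3150, within or below the range without laser. Wild type laser libraries ranged from 8827 to 39837 (median 28009), and library 17, at 8827, was the 1 of 9 that did not exceed all libraries without laser. The log2 fold change was 1.98 in wild type (SE 0.50, limma adjusted p = 0.0201) and 0.87 in Ceacam1-/- mice (SE 0.52, adjusted p = 0.363). Without the 5 rod-rich libraries the value in Ceacam1-/- mice was 1.78 (SE 0.38, limma adjusted p = 0.00338).

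Cd9, a tetraspanin that organises integrins in the membrane, was measured at 5983, 13052, 8232 and 5747 normalized counts in wild type and at 8252, 8529, 5511 and 10737 in Ceacam1-/- libraries without laser. With laser the range was 11543 to 23369 in wild type (median 15397) and 8138 to 20173 in Ceacam1-/- libraries (median 15652). The groups overlapped in both genotypes, by 1 high wild type library without laser (22) and by the rod-rich libraries 14 and 18 with laser. Fold changes on the log2 scale were 0.99 in wild type (SE 0.26, limma adjusted p = 0.0255) and 0.81 in Ceacam1-/- mice (SE 0.27, adjusted p = 0.0915). In Ceacam1-/- mice Cd9 passed the threshold when the rod-rich libraries were left out (1.16, SE 0.28, limma adjusted p = 0.00786).

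Apoe, the lipoprotein that TREM2 binds and LDL receptors take up, was the member with the highest level per kilobase without laser. It stood at 48521, 38635, 84737 and 48198 normalized counts in wild type libraries 21, 22, 26 and 27 and at 59298, 60104, 89451 and 51291 in Ceacam1-/- libraries 23, 24, 25 and 28. With laser it ranged from 63957 to 118802 in wild type (median 84272), and Ceacam1-/- libraries 4, 5, 6, 7, 14, 15 and 18 held 56243, 45867, 58194, 55226, 25971, 19946 and 17781. In both genotypes the laser and no-laser ranges overlapped. The log2 fold change was 0.77 in wild type (SE 0.32, limma adjusted p = 0.168) and -0.83 in Ceacam1-/- mice (SE 0.33, adjusted p = 0.159), so neither passed the threshold. With array weights, which give less weight to libraries far from their group, the effect in wild type was 0.80 (SE 0.20) and passed it (limma adjusted p = 0.00373), where 16.2% of all genes were called higher. The 3 lowest Ceacam1-/- laser values were those of the rod-rich libraries, and without the 5 rod-rich libraries the effect in Ceacam1-/- mice was -0.28 (SE 0.30, limma adjusted p = 0.573).

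Lpl, which hydrolyses triglycerides at the vessel wall, had no detectable change. It was at 2662, 6904, 2796 and 5578 normalized counts in wild type and at 765, 4423, 2452 and 2593 in Ceacam1-/- libraries without laser, and with laser between 1766 and 4136 in wild type and between 750 and 3806 in Ceacam1-/- libraries. The log2 fold change was -0.57 (95% interval -1.48 to 0.35, limma adjusted p = 0.482) in wild type and -0.40 (-1.35 to 0.55, adjusted p = 0.654) in Ceacam1-/- mice. Without laser, wild type libraries 22 and 27 held both the most Lpl and the highest summed skeletal muscle markers of their group (518832 and 539430), and Ceacam1-/- library 23 the least of both (49917). The part of muscle RNA in the level of Lpl was not tested.

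Cst7 was near the limit of the filter. It was measured at 14.7, 22.1, 9.22 and 7.19 normalized counts in wild type and at 35.9, 18.2, 35.1 and 3.79 in Ceacam1-/- libraries without laser, and between 12.6 and 48.9 and between 10.4 and 73.6 with laser. The ranges overlapped in both genotypes, and the log2 fold change was 1.30 (SE 0.55, limma adjusted p = 0.179) in wild type and 0.47 (SE 0.57, adjusted p = 0.677) in Ceacam1-/- mice. With array weights the effect in wild type was 1.77 (SE 0.41) and passed the threshold (limma adjusted p = 0.00222).

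In Ceacam1-/- mice, then, 4 of 10 members were called higher after laser (Tyrobp, Spp1, Itgax and Clec7a) and 0 lower, where 2.07% of all genes tested were called higher and 1.65% lower. The median log2 fold change of the 10 genes was 1.16, against 0.02 for all genes. Without the 5 rod-rich libraries, an alternative chosen after the data were seen, 7 members were called in Ceacam1-/- mice, which were the same 7 as in wild type mice, beside 8.66% of all genes called higher, and the median was 1.97. With a rod score as a covariate instead, also chosen afterwards, 6 passed, Gpnmb not among them, beside 682 of 19950 genes called higher. When only the 11 Ceacam1-/- libraries were fitted, Spp1 alone passed, beside 0.177% of all genes called higher, and with 1 library left out at a time between 2 and 6 members passed, the lowest count coming without Ceacam1-/- library 24 or 25 (no laser). In these fits the count of all genes called in either direction moved as well, from 742 with every library to 255 without library 24, 148 without library 25 and 2488 without library 23, where 5 members passed.

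**Figure D2:**
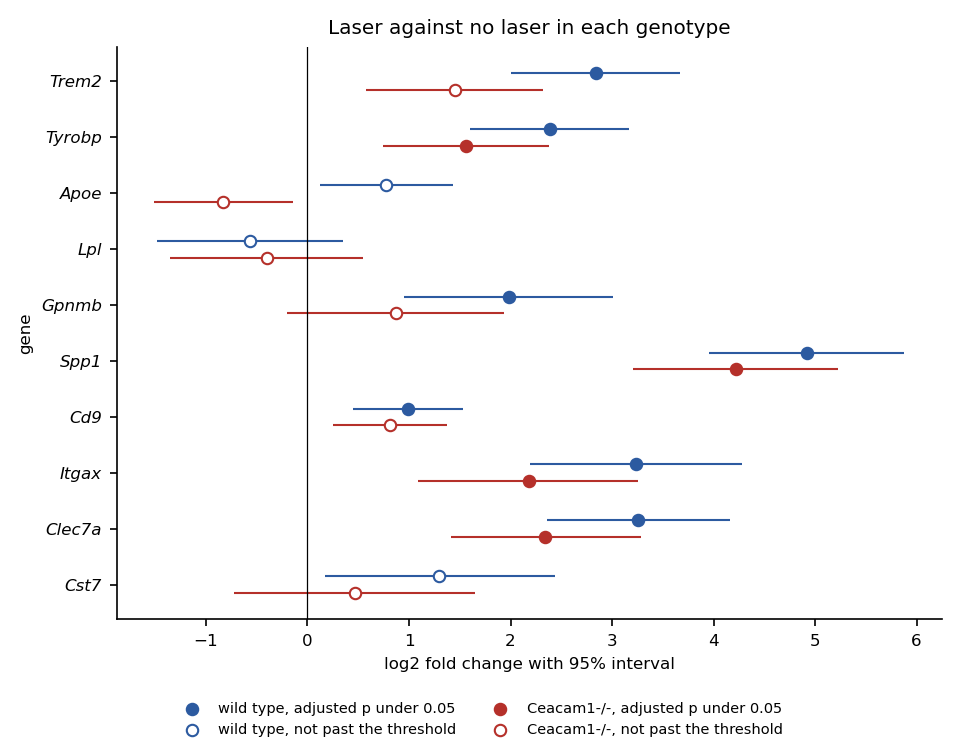
Log2 fold change of each gene, laser against no laser, in wild type (blue) and Ceacam1-/- mice (red), with the 95% interval of the limma fit over 24 libraries. Filled circles passed an adjusted p of 0.05, which 7 genes did in wild type and 4 in Ceacam1-/- mice.

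The next question is whether the laser response of these genes depended on genotype. The interaction of laser and genotype was called for 0 of 10 members and for 0% of the 19950 genes tested with limma, of which 1241 had an unadjusted p under 0.05. The log2 difference between the laser effects (Ceacam1-/- minus wild type) was lowest for Apoe, at -1.60 (SE 0.46, unadjusted p = 0.00198, limma adjusted p = 0.64), followed by Trem2 at -1.39 (SE 0.59, unadjusted p = 0.0264, adjusted p = 0.64). For Apoe, every wild type laser library was above, and every Ceacam1-/- laser library below, the mean of its own genotype without laser on the log2 scale. Without the 5 rod-rich libraries the difference was -1.01 (SE 0.40) for Apoe, -0.51 (SE 0.49) for Trem2, and -0.02 (SE 0.50) for Gpnmb, which was at -1.11 (SE 0.72) with them.

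Without laser, Ceacam1-/- and wild type choroid were compared in 8 libraries. The limma test called 0 of 10 members and 0% of 20057 genes, of which 307 had an unadjusted p under 0.05. The paper compared 4 wild type and 4 Ceacam1-/- choroids with DESeq2 and sex as a covariate, and it did call genes. Sex was not in the limma fit, so the count of 0 holds for this test only. Log2 differences ran from -0.93 for Lpl (95% interval -2.16 to 0.29) to 0.78 for Trem2 (-0.07 to 1.63), and no member separated the genotypes, which 0.922% of all genes did with Ceacam1-/- higher and 0.434% with it lower. The values of 4 libraries a group do not exclude differences within these intervals.

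With laser, none of the 10 genes passed the test between genotypes, where limma called 0.0202% of 19757 genes (4 genes) and 4479 genes had an unadjusted p under 0.05. The count of genes called was 25 without wild type library 17, 61 without library 19 and 4 to 7 without any other single library. All 10 log2 differences were negative, with a median of -0.69 against 0.01 for all genes, and 5 members had an unadjusted p under 0.05. Without the rod-rich libraries 14, 15 and 18, 5 differences were negative and 5 positive, with a median of 0.05. Gpnmb moved from -1.05 (SE 0.46, limma adjusted p = 0.197) to -0.00 (SE 0.30, adjusted p = 0.999), and Trem2 from -0.61 (SE 0.36) to 0.10 (SE 0.25).

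Apoe was the 1 member that separated the genotypes with laser, in that all 7 Ceacam1-/- libraries lay below all 9 wild type libraries, which held for 0.0709% of all genes in this direction. Libraries 4, 5, 6 and 7, which were poor in rod RNA, held 45867 to 58194 normalized counts and were below the lowest wild type value of 63957 as well. The log2 difference was -1.32 (SE 0.28, limma adjusted p = 0.0822), and -0.74 (SE 0.20, adjusted p = 0.294) without the rod-rich libraries. With array weights it was -0.81 (SE 0.19) and passed the threshold (adjusted p = 0.0429). Pigment epithelium also expresses Apoe, and its 6 markers, led by Ttr, had a sum of 36815 to 287475 (median 159008) in Ceacam1-/- against 209269 to 467038 (median 352845) in wild type laser libraries. These ranges overlapped, and the 6 markers had a median log2 difference of -1.48, all 6 negative, with 5 at an unadjusted p under 0.05 and 0 past the limma test after adjustment. The 4 Y-linked genes had a median log2 difference of -4.20 between these groups, with 0 called. With the log2 of their summed counts as a covariate the Apoe difference was -1.20 (SE 0.32, limma adjusted p = 0.411). The part of pigment epithelium RNA in the Apoe difference was not tested, and the deletion cannot be told apart from other sequence inherited with it on chromosome 7.

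Apoc2, the activator of LPL, lies beside Apoe at chr7:19405504-19411877 and was called in the comparison of genotypes with laser. It was measured at 3.22, 5.79, 18.1 and 5.67 normalized counts in wild type and at 1.09, 6.14, 0 and 5.13 in Ceacam1-/- libraries without laser. With laser it ranged from 133 to 495 in wild type (median 308) and from 17.9 to 65.4 in Ceacam1-/- libraries (median 48.8). Within each genotype the laser libraries all lay above those without laser, and with laser the genotypes did not overlap either. The log2 fold change after laser was 5.14 in wild type (SE 0.52, limma adjusted p = 1.52e-06) and 3.65 in Ceacam1-/- mice (SE 0.54, adjusted p = 0.000415). Without laser its means were 8.20 in wild type and 3.09 in Ceacam1-/- libraries, under the filter of 10. Apoc2 thus entered that fit only through the laser libraries, where it was high, so its 2 laser p-values are not read as a test. Between genotypes with laser the log2 difference of Apoc2 was -2.82 (SE 0.35, limma adjusted p = 0.00188), and the interaction did not pass (-1.49, SE 0.75, adjusted p = 0.64). A read-through gene that spans Apoc2 and Apoc4 is annotated over the same exons, so the split of reads between them is uncertain.

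**Figure D3:**
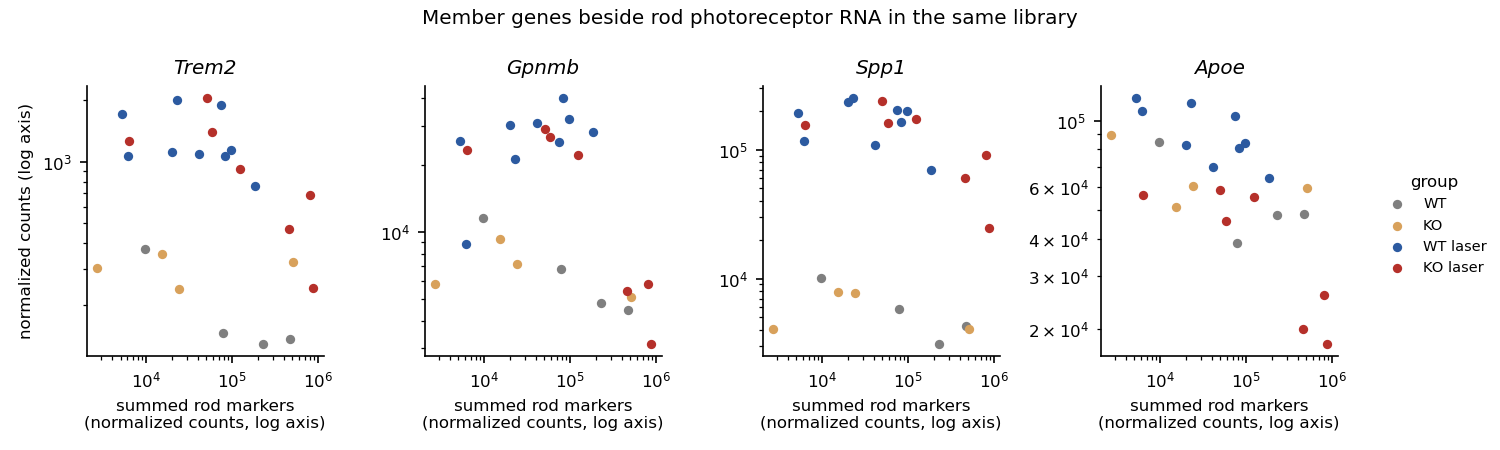
Normalized counts of Trem2, Gpnmb, Spp1 and Apoe (log axes) against the summed normalized counts of 6 rod markers in the same library, coloured by group. The 3 Ceacam1-/- laser libraries at 464126 or more on the horizontal axis hold the 3 lowest Trem2, Gpnmb and Apoe values among the laser libraries.

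How much of these changes went with macrophage markers in general was asked by subtracting, in each library, the mean log2 level of 8 pan-macrophage markers (Csf1r, Adgre1, Aif1, Ptprc, Itgam, Fcgr1, Mertk and Cd14). After laser 6 of the 8 rose in wild type mice (median log2 fold change 2.24) and 5 in Ceacam1-/- mice (median 1.59). Their mean log2 level was 7.56 to 8.75 without and 9.90 to 10.43 with laser in wild type libraries. In Ceacam1-/- libraries it was 8.11 to 8.64 without laser, 10.09 to 10.40 in laser libraries 4, 5, 6 and 7, and 8.60 to 8.94 in the rod-rich laser libraries 14, 15 and 18.

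Relative to these markers, 4 members were higher after laser in wild type mice, where this held for 0.602% of all genes. They were Spp1 at 2.99 (SE 0.33, limma adjusted p = 2.37e-06), Clec7a at 1.33 (SE 0.34, adjusted p = 0.00103), Itgax at 1.31 (SE 0.38, adjusted p = 0.00311) and Trem2 at 0.91 (SE 0.30, adjusted p = 0.00671) on the log2 scale. Lower relative to the markers were Lpl at -2.50 (SE 0.35), Apoe at -1.16 (SE 0.25) and Cd9 at -0.94 (SE 0.27), as were 89.2% of all genes. Tyrobp at 0.46 (95% interval -0.08 to 1.00) and Gpnmb at 0.05 (-0.58 to 0.68) were not distinguished from the markers. In Ceacam1-/- mice, 2 members were higher (Spp1 at 2.95, SE 0.34, limma adjusted p = 6.02e-06, and Clec7a at 1.07, SE 0.35, adjusted p = 0.0129; 0.702% of all genes) and 2 lower (Apoe at -2.10 and Lpl at -1.67; 61.3% of all genes).

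The choice of markers mattered. With Csf1r alone as the reference, which itself changed by 0.89 (limma adjusted p = 0.186) in wild type and by -0.28 (adjusted p = 0.73) in Ceacam1-/- mice, 5 members were higher and 0 lower in each genotype. Of all genes 0.727% were then higher and 1.94% lower in wild type, and 1.48% higher and 0.296% lower in Ceacam1-/- mice. Without the 5 rod-rich libraries the relative change of Spp1 was 3.11 (SE 0.35) in wild type and 2.98 (SE 0.40) in Ceacam1-/- mice.

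**Figure D4:**
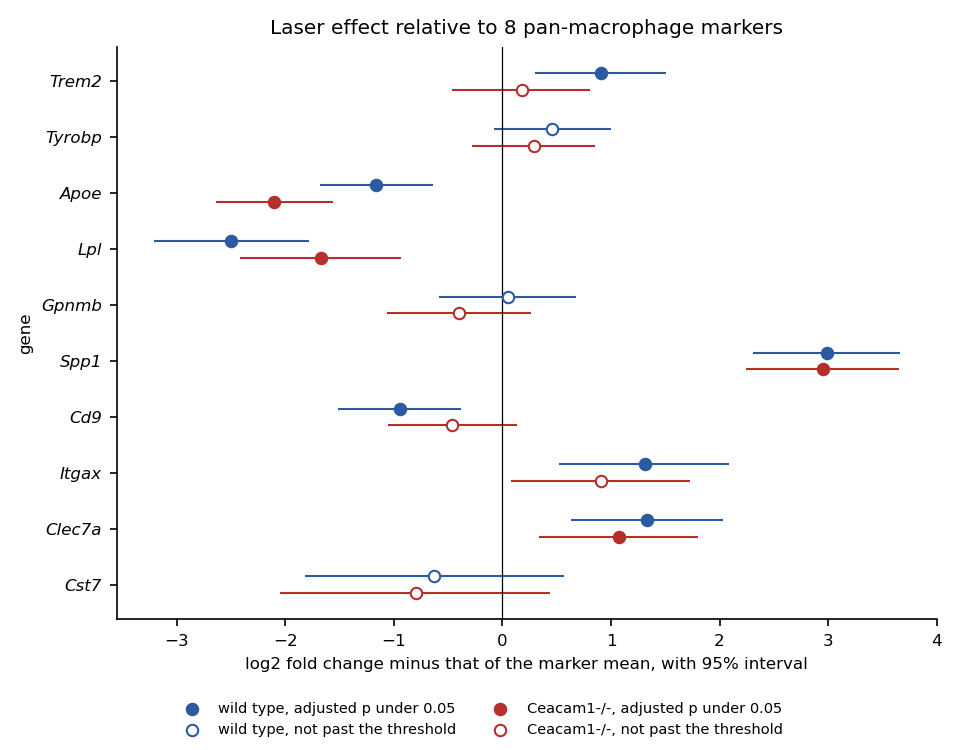
Log2 fold change of each gene, laser against no laser, minus that of the mean of 8 pan-macrophage markers, with 95% intervals (limma, 24 libraries). Spp1 lies near 3 in both genotypes, while Apoe and Lpl lie below 0.

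Of 24 other genes of the same program, 16 were higher after laser in wild type mice and 12 in Ceacam1-/- mice, with 0 lower and medians of 1.65 and 1.04. Beside this list and those below, 4.23% of all genes were called higher in wild type and 2.07% in Ceacam1-/- mice. Mmp12, macrophage elastase, went from 148 ± 41.0 (SD, n = 4) to 2363 ± 782 (n = 9) normalized counts in wild type and from 163 ± 89.2 (n = 4) to 1841 ± 954 (n = 7) in Ceacam1-/- libraries, log2 fold changes of 3.93 (limma adjusted p = 3.61e-06) and 3.40 (adjusted p = 0.000147). The lysosomal glycoprotein Cd68 rose by 2.77 and 2.05, the surface peptide gene Cd52 by 2.48 and 1.77, and the fatty acid carrier Fabp5 by 2.26 and 1.43 on the log2 scale in wild type and Ceacam1-/- mice, each past the threshold. Fabp4 and Cd36, lipid genes that fat cells and endothelium also express, did not pass, at -0.58 and -0.10 in wild type and -0.93 and -0.52 in Ceacam1-/- mice. With the 5 rod-rich libraries left out, 19 of the 24 were higher in each genotype, with a median of 1.48 in both. In that fit, to be read beside the lists below as well, 1129 of 19596 genes were higher in wild type and 1697 in Ceacam1-/- mice.

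The signalling chain downstream of TREM2 and dectin-1 changed in part. Of 15 kinases, adaptors, phosphatases and sheddases, 6 were higher in wild type mice and 3 in Ceacam1-/- mice, with 0 lower (medians 0.92 and 0.53). The exchange factor Vav1 rose by 2.47 (SE 0.34, limma adjusted p = 9.32e-05) and 1.63 (SE 0.36, adjusted p = 0.0135), and the adaptor Lat2 by 2.65 and 1.73, in the same order of genotypes. Ptpn6, the phosphatase SHP-1, rose by 1.44 and 1.14, and the kinase Btk rose by 2.58 in wild type and was at 1.32 (limma adjusted p = 0.143) in Ceacam1-/- mice. Syk and Inpp5d were chosen after their values were seen. Syk, the kinase that TYROBP recruits, did not pass in either, at 1.25 (adjusted p = 0.135) and 0.60 (adjusted p = 0.524). Inpp5d, the phosphatase SHIP1 that opposes this signal, was at 161 to 383 normalized counts in wild type and 443 to 863 in Ceacam1-/- libraries without laser, without an overlap, but did not pass the limma test (log2 difference 1.27, SE 0.34, adjusted p = 0.999). It rose after laser in wild type (1.21, SE 0.33, limma adjusted p = 0.0307) and was at -0.80 (SE 0.34, adjusted p = 0.188) in Ceacam1-/- mice, with an interaction of -2.01 (adjusted p = 0.64). With the rod-rich libraries left out, 8 of the 15 were higher in each genotype (medians 0.78 and 0.86), Btk then passed in Ceacam1-/- mice (2.25, SE 0.34, limma adjusted p = 0.000198), and Inpp5d was at -0.29 (SE 0.25, adjusted p = 0.476) there.

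Of 10 other receptors that pair with TYROBP, 9 were abundant enough to test, and 6 were higher in wild type and 4 in Ceacam1-/- mice (medians 2.74 and 2.61). In the libraries without laser alone, 6 of the 10 passed the filter on low values. All counts and medians of this list thus include receptors, Trem1 among them, that passed the filter only through the laser libraries, so no rise of the list is read from them. Trem1, an amplifier of myeloid activation next to Trem2 on chromosome 17, was listed at 0 in all 8 libraries without laser and lay between 0 and 40.0 normalized counts in wild type (median 16.9) and between 2.99 and 40.2 in Ceacam1-/- libraries (median 14.1) with laser. Clec5a rose by 3.24 in wild type (SE 0.47, limma adjusted p = 0.000122) and was at 1.63 (SE 0.49, adjusted p = 0.0616) in Ceacam1-/- mice, and Cd300lb rose by 2.74 and 2.88. Sirpb1c rose by 2.89 and 5.66, but it shares near-identical sequence with Sirpb1a and Sirpb1b, so that its counts are uncertain. With the rod-rich libraries left out, 5 of 9 were higher in wild type and 8 of 9 in Ceacam1-/- mice (medians 2.40 and 3.09), among them Clec5a at 2.81 (SE 0.34, limma adjusted p = 3.25e-05).

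Of 16 listed partners of APOE and LPL, 13 were tested, and 3 were higher in wild type (Apoc2, the scavenger receptor Msr1 and the LPL inhibitor Angptl4) and 2 in Ceacam1-/- mice (Apoc2 and Msr1), with medians of 0.26 and -0.04. Apoc2, at means of 8.20 in wild type and 3.09 in Ceacam1-/- libraries without laser, passed the filter only through the laser libraries. Msr1 rose by 3.12 (limma adjusted p = 0.000218) and 2.84 (adjusted p = 0.00229). Angptl4 rose by 2.31 in wild type (SE 0.46, limma adjusted p = 0.00328) and was at 0.18 (SE 0.48, adjusted p = 0.863) in Ceacam1-/- mice, with an interaction of -2.13 (SE 0.66, adjusted p = 0.64). Apoc3 did not pass (0.48 and -1.51), and Apoa5 was listed at 0 in all libraries. Leaving out the rod-rich libraries, 3 and 2 of 13 were higher (medians 0.20 and 0.12), and Angptl4 was at 0.51 (SE 0.38, limma adjusted p = 0.403) in Ceacam1-/- mice.

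Of 11 genes of cholesterol sensing, efflux and esterification, 1 was higher in wild type mice and 0 in Ceacam1-/- mice (medians 0.27 and 0.20). Among all genes 4.23% and 2.07% were higher, and counts this small do not set the list apart. The gene called was the efflux transporter Abca1, at 1.07 (SE 0.21, limma adjusted p = 0.00291) in wild type and 0.47 (SE 0.22, adjusted p = 0.226) in Ceacam1-/- mice. Soat1, which esterifies cholesterol, was at 1.24 (adjusted p = 0.0665) and 0.51 (adjusted p = 0.511), the LXR receptor gene Nr1h2 at -0.16 and -0.32, and the transporter Abcg1 at 0.02 and 0.93, none past the threshold. Leaving out the rod-rich libraries, 2 of 11 were higher in each genotype (medians 0.24 and 0.43), beside 1129 and 1697 of 19596 genes. In Ceacam1-/- mice the 2 were Soat1 at 1.31 (SE 0.37, limma adjusted p = 0.0224) and Abcg1 at 0.81 (SE 0.25, adjusted p = 0.0326).

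Binding partners of SPP1, ITGAX and GPNMB numbered 11, of which 3 were higher in wild type (Itgb2, Itga5 and Cd44) and 2 in Ceacam1-/- mice (Itgb2 and Itga4), with medians of 0.88 and 0.36. Itgb2, the beta chain that pairs with ITGAX, rose by 3.27 (SE 0.35, limma adjusted p = 2.57e-06) and 2.16 (SE 0.36, adjusted p = 0.0016), close to the change of Itgax itself (3.24 and 2.18). The osteopontin receptors Itga5 and Cd44 rose by 1.50 and 1.58 in wild type and were at 0.72 and 1.12 in Ceacam1-/- mice. Itga4 was at 0.22 in wild type and rose by 1.08 in Ceacam1-/- mice (limma adjusted p = 0.0403). Leaving out the rod-rich libraries, 6 of 11 were higher in each genotype (medians 0.74 and 0.86), Itga5 (1.27) and Cd44 (1.24) in Ceacam1-/- mice among them.

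Of 5 lysosomal proteases in the network of cystatin F, 4 were higher in wild type and 2 in Ceacam1-/- mice (medians 1.20 and 0.89). Cathepsin S (Ctss) rose by 2.94 (limma adjusted p = 2.18e-05) and 2.17 (adjusted p = 0.00229) and legumain (Lgmn) by 1.14 and 0.84. Ctsz and Ctsc rose by 1.45 and 1.20 in wild type and were at 0.68 and 1.06 in Ceacam1-/- mice. Leaving out the rod-rich libraries, 5 of 5 were higher in each genotype (medians 1.14 and 1.43).

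**Figure D5:**
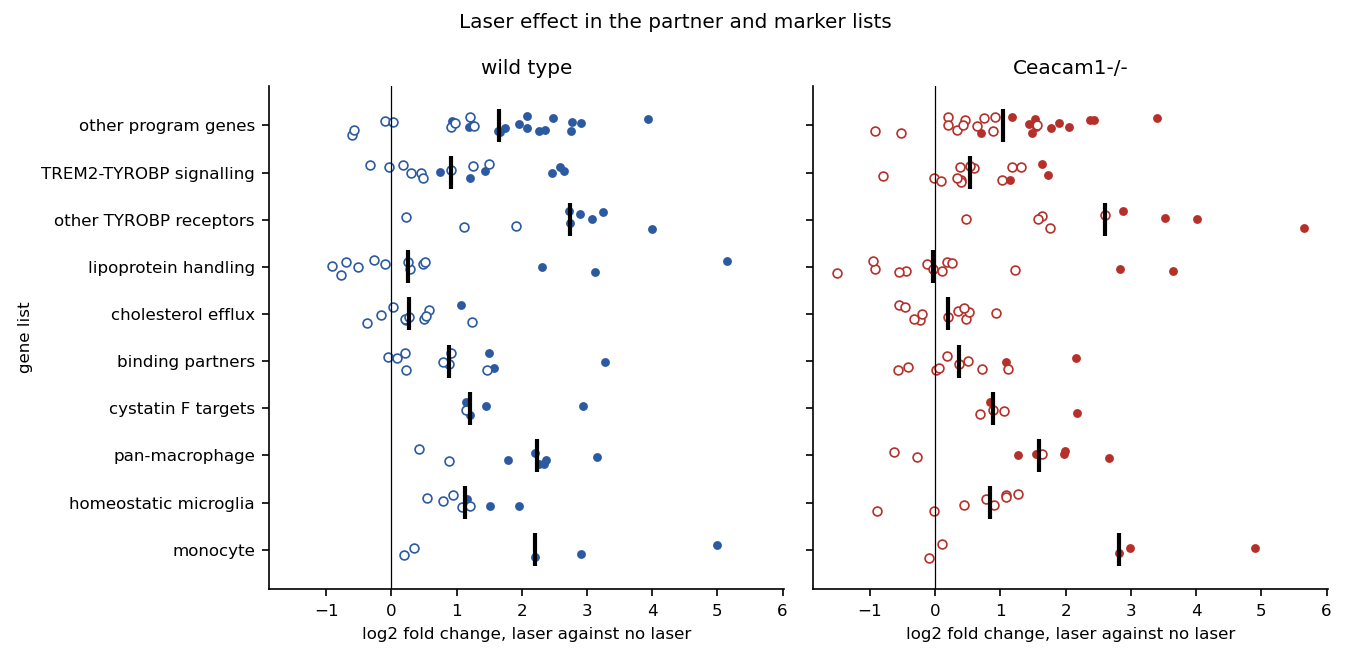
Log2 fold change after laser (horizontal axis) of the genes in each partner or marker list, in wild type (left) and Ceacam1-/- mice (right), with the list's median as a black bar. Filled circles passed a limma adjusted p of 0.05; in these lists every filled circle lies above 0.

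Markers of other myeloid cells were measured beside the members. Of 5 monocyte markers, led by Plac8, 3 were higher in each genotype, among them Chil3 by 4.99 and 4.90 and Ccr2 by 2.91 and 2.81. In the libraries without laser alone, 4 of these 5 passed the filter on low values. Markers of homeostatic microglia, led by Olfml3, were higher for 3 of 8 genes in wild type and 0 of 8 in Ceacam1-/- mice, with P2ry12 at 0.79 (limma adjusted p = 0.394) and 0.44 (adjusted p = 0.673). Dendritic cell markers were higher for 3 of 6 and 1 of 6, perivascular macrophage markers for 1 of 6 and 0 of 6, and neutrophil markers for 2 and 1 of 4 tested. Without the rod-rich libraries the monocyte counts were 3 of 5 in each genotype, homeostatic microglia markers were higher for 4 of 8 in wild type and 6 of 8 in Ceacam1-/- mice, with P2ry12 at 1.90 (limma adjusted p = 0.000959) in the latter, dendritic for 3 and 2 of 6, perivascular for 2 of 6 in each, and neutrophil for 2 of 4 in each. Of 5 tested of 8 natural killer and cytotoxic markers, 0 passed (medians -0.10 and 0.72). The part of each cell type in the level of a member was not tested.

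Of the 6 pigment epithelium markers 0 passed after laser (medians -0.07 in wild type and -1.61 in Ceacam1-/- mice), nor did any of 7 melanocyte markers, led by Dct (0.53 and -0.52), 6 rod markers (-1.52 and 2.30), 6 skeletal muscle markers, led by Acta1 (-0.95 and -2.08), 5 endothelial markers, led by Plvap (0.42 and -0.05), or 4 tested adipocyte markers (-0.81 and -1.21). Of 5 fibroblast markers, led by Col1a1, 1 was higher in each genotype (1.11 and 1.23), of 5 glial markers 1 in wild type (-0.14 and -0.16), and of 4 tested cartilage and bone markers 1 in wild type (1.04 and 1.49). Without the rod-rich libraries, 3 of 5 fibroblast markers were higher in wild type and 5 of 5 in Ceacam1-/- mice, and 1 of 6 muscle markers was lower in wild type and 6 of 6 in Ceacam1-/- mice. Summed pigment epithelium markers were 63238, 49391 and 36815 in the rod-rich Ceacam1-/- laser libraries 14, 15 and 18, where Apoe and Gpnmb were low, and the summed pan-macrophage markers were 3864, 5239 and 3329 there against 9890 to 12047 in libraries 4, 5, 6 and 7. The part of pigment epithelium, melanocyte or rod RNA in the low values of these 3 libraries was not tested.

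Per kilobase of canonical transcript, the order of mean levels without laser was the same in both genotypes, from Apoe through Cd9, Spp1, Gpnmb, Tyrobp, Lpl, Trem2, Clec7a and Cst7 to Itgax. In wild type libraries without laser, Apoe stood at 25228 ± 9323 (SD, n = 4) normalized counts per kilobase and Itgax at 8.99 ± 4.99. Spp1 (2614 ± 1384), Gpnmb (1804 ± 849), Tyrobp (1118 ± 433) and Lpl (1090 ± 510) overlapped with their neighbours. With laser, Spp1 was first, at 76808 ± 27355 (n = 9) in wild type and 57839 ± 33158 (n = 7) in Ceacam1-/- libraries, ahead of Apoe at 42052 ± 9051 and 18290 ± 8274. Lpl went from the sixth to the eighth place in both genotypes.

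The genes nearest to the remaining called members over the 24 libraries were of several kinds. Gpnmb was nearest to the phagosomal transporter Slc11a1 (root mean square log2 difference 0.33) and Tnfrsf1b (0.34), Itgax to C3ar1 (0.46) and Csn3 (0.49), and Clec7a to lysozyme Lyz2 (0.48) and Cd200r1 (0.49). Spp1 was nearest to Timp1 (0.51) and F10 (0.64), against its own spread of 2.31, and Cd9 to Srm (0.27) and Ptpre (0.28), against a spread of 0.59. The spreads of Gpnmb, Itgax and Clec7a were 1.15, 1.57 and 1.56. These values share libraries, so they describe likeness across the same 24 samples.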

How the data were processed

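Choroidal mRNA was sequenced in 24 SMART-Seq libraries. The authors pseudo-aligned reads with salmon 1.10.3 to GRCm39 transcripts, summed them per gene with tximport and deposited DESeq2 1.44.0 normalized counts, a scaled signal rather than raw counts, so read depth is not known from the table. They removed 1 outlier library whose identity is not given in the sources used here.

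Values were taken as log2(value + 1), and genes with a mean of at least 10 over the libraries of a fit were tested with limma 3.58.1 (R 4.3.3; trend) with Benjamini-Hochberg adjustment at 0.05. Laser effects and their interaction used 24 libraries, and genotype comparisons the 8 or 16 libraries concerned. Fold changes on this scale understate those of low genes. The fits were tested on simulated data. Levels per kilobase divide by canonical transcript length. Intervals are 95% intervals.

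The members and lists were chosen with earlier results of these data known. Named genes were all members, up to 4 genes of lowest p over both laser comparisons per partner list, the most abundant marker of a cell type, markers at 0, and for each called member the 2 nearest genes. Fabp4, Cd36, Syk, Inpp5d, Chil3, Ccr2 and P2ry12 were added after their values were seen. Promoters were read from GRCm39. The promoter of 1 member is not reported here, so no motif count over the 10 members is given.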

Additional observations from a re-analysis of the deposited data

Results flagged for a closer look

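In 40 groups of a member and a condition, 3 values, from 2 libraries, lay apart from the rest by Dixon's criterion, which chance alone exceeds in about 1 in 20 groups. Wild type library 26 without laser had 376 normalized counts of Trem2, against 129 to 144 in the other 3 libraries of its group, and 1073 of Tyrobp, against 541 to 557. The same library had the highest summed pan-macrophage markers of its group, 6979. Wild type laser library 17 had 8827 normalized counts of Gpnmb, the other 8 holding 21212 to 39837, and the lowest summed melanocyte markers of its group, 70768.

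The Apoe laser effect had a positive estimate in wild type (0.77, SE 0.32) and a negative one in Ceacam1-/- mice (-0.83, SE 0.33), neither past the limma test (adjusted p = 0.168 and 0.159). The log2 difference of the effects was -1.60, every wild type laser library being above and every Ceacam1-/- laser library below the mean of its own genotype without laser. The interaction did not pass the limma test (adjusted p = 0.64). The effect in Ceacam1-/- mice was -0.28 (SE 0.30) without the 5 rod-rich libraries, and the interaction -1.01 (SE 0.40, limma adjusted p = 0.865).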

How the results depend on the processing

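No paired analysis was possible because the labels do not link libraries to mice or eyes. The exclusion of the 5 libraries rich in rod RNA and the rod score as a covariate were chosen after seeing the data. Over all alternatives 2478 values kept their direction and their side of the threshold, 36 came to pass it, 22 ceased to and 56 changed sign, and the cause was not tested. Members called after laser in Ceacam1-/- mice numbered 4, but 7 with array weights (9.5% of all genes higher) and 7 without the rod-rich libraries. With the rod score as a covariate 6 were called, without Gpnmb, beside 682 of 19950 genes higher. There were 3 without a filter on low values (265 of 40409 genes higher) and 5 at a mean of at least 50 (396 of 15545). When only the compared libraries were fitted 1 was called, and 2 to 6 with 1 library left out. The lowest count, 2, came without Ceacam1-/- library 24 or 25, where 255 and 148 of all genes were called. With array weights 1 member (Apoe) was called between genotypes with laser, where 1.5% of all genes were, and 7 relative to macrophage markers in Ceacam1-/- mice (4 higher and 3 lower, beside 1.34% and 85.4% of all genes). In wild type mice 7 were called after laser, but 9 with array weights (Apoe and Cst7 added, beside 16.2% of all genes higher and 16.4% lower), and 5 to 7 with 1 library left out: Gpnmb was lost without library 21 or 27, and Cd9 without 21, 26 or 27.

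Some log2 values changed sign. Without the rod-rich libraries the interaction was 0.02 for Spp1, 0.30 for Cd9 and 0.14 for Clec7a, the genotype difference without laser -0.10 for Cd9 and -0.39 for Clec7a, and that with laser 0.10 for Trem2, 0.25 for Tyrobp, 0.16 for Spp1, 0.20 for Cd9 and 0.11 for Cst7. With the rod score as a covariate, Lpl after laser in Ceacam1-/- mice was 0.05, the interaction 0.01 for Spp1 and 0.11 for Cd9, the difference without laser -0.15 for Gpnmb, -0.11 for Spp1, -0.29 for Itgax and -0.14 for Clec7a, that with laser 0.04 for Tyrobp, 0.14 for Cd9 and 0.03 for Cst7, and Gpnmb relative to macrophage markers in wild type -0.01 (-0.03 with quantile normalization). With array weights the difference without laser was -0.24 for Itgax and -0.37 for Clec7a, and that with laser 0.14 for Tyrobp and 0.17 for Cd9. With Csf1r alone as reference, Cd9 was 0.10 (from -0.94) and Cst7 0.41 (from -0.63) in wild type, and Gpnmb 1.15 (from -0.40), Cd9 1.09 (from -0.46) and Cst7 0.75 (from -0.80) in Ceacam1-/- mice. With 1 library left out, Cst7 after laser in Ceacam1-/- mice ranged from -0.19 to 0.79, the Lpl interaction from -0.33 to 0.51, Gpnmb relative to macrophage markers in wild type from -0.17 to 0.20, and the difference without laser from -0.12 to 0.34 for Gpnmb, -0.16 to 0.41 for Spp1, -0.10 to 0.29 for Cd9, -0.26 to 0.47 for Itgax and -0.28 to 0.27 for Clec7a.

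Counts of all genes called also moved. After laser in wild type mice 1053 genes were called (787 without a filter, 6505 with array weights, 2274 with only the compared libraries, 1645 without the rod-rich ones, and 479 to 1257 with 1 library left out), and in Ceacam1-/- mice 742 (437, 3551, 38, 2923 and 148 to 2488 in that order). Between genotypes with laser 4 were called, and 4 to 61 with 1 library left out. Without a depth per library, no limit of detection could be given.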
